A study of Mus musculus with 12 samples.

Results

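The 8 genes described here, Acot1, Acot2, Acot7, Acot9, Acot11, Acot13, Ucp3 and Angptl4, encode 6 acyl-CoA thioesterases and a pair of further genes known to respond to the fatty acid receptor PPAR-alpha. They were chosen by gene symbol from the 34714 genes of an RNA sequencing table of mouse heart, and all 8 symbols were found. The 3 labelled groups were aPD1_lef (4 libraries), aPD1_veh (4 libraries) and IgG_lef (4 labelled libraries, 3 of them used here). Both aPD1 labels name anti-PD-1, an antibody against the checkpoint receptor PD-1 of T cells, once with leflunomide (lef), an immunosuppressant that inhibits pyrimidine synthesis, and once with veh, read here as vehicle. The IgG_lef label names the control antibody and the drug. The series describes a melanoma mouse model. The labels used here give no strain, sex, age, dose or time, and do not state which libraries come from separate animals. The p-values below therefore measure only the spread between these samples. A group given control antibody and vehicle was not analysed here. By their labels, aPD1_veh and IgG_lef differ in the antibody and also in the drug.

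Acyl-CoA thioesterases split fatty acyl-CoA into free fatty acid and coenzyme A, in the opposite direction to the acyl-CoA synthetases that activate fatty acids for oxidation or storage. The heart obtains most of its energy from fatty acids, and PPAR-alpha, a nuclear receptor that binds fatty acids and pairs with a retinoid X receptor, raises transcription of many genes of their uptake and oxidation. Acot1, Acot2, Ucp3 and Angptl4 are textbook PPAR-alpha targets. Ucp3 is a carrier of the mitochondrial inner membrane, and Angptl4 is a secreted inhibitor of lipoprotein lipase. Angptl4 is also known to respond to low oxygen and to glucocorticoids.

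The levels are the deposited values, treated as FPKM, a unit of sequenced fragments scaled by gene length and by the size of the library. They summed to between 393494 and 413010 in aPD1_lef libraries, between 441935 and 465511 in aPD1_veh libraries and between 413628 and 440748 in IgG_lef libraries. The number of reads behind a level is unknown. Replicate 4 of aPD1_lef stood apart from its group: across genes it correlated with the other 3 libraries at r = 0.91 to 0.95, while replicates of aPD1_veh and IgG_lef correlated at 0.98 or more with their own group. Its summed level of 12 cardiomyocyte markers was 15150 FPKM, against 30980 to 40230 FPKM in the other aPD1_lef libraries. All 12 markers were at 14.4 FPKM or more in every library, as in heart. Values without this library stand beside many of the results that it moves.

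The DNA before the start sites of 4 of the 8 genes is shown because those genes carry the main patterns described below: the neighbours Acot1 and Acot2 and the carrier Ucp3 had the lowest ratios of aPD1_lef to aPD1_veh, and Acot9 was the thioesterase that stood higher in aPD1_lef. Each sequence holds the 250 bases before the start site on the gene's strand in the RefSeq annotation of GRCm38.p6, which gave entries for 6 of the 8 genes. Capitals mark the best match, with at most 3 mismatches among its 12 fixed letters, to AGGTCANAGGTCA, the repeated element to which PPAR-alpha and its retinoid X partner are known to bind, searched on both strands.
Ucp3, chr7:100472741-100472990, plus strand: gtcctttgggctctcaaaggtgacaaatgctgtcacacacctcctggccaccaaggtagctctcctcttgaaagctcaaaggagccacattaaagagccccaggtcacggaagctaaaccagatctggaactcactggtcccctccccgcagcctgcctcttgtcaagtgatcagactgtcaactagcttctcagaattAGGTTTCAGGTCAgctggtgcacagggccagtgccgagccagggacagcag
Acot2, chr12:83987611-83987860, plus strand: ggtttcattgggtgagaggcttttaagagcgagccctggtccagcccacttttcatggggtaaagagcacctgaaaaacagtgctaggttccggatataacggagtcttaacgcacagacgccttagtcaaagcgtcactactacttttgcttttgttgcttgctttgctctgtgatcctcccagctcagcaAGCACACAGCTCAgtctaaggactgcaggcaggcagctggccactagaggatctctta
Acot1, chr12:84009252-84009501, plus strand: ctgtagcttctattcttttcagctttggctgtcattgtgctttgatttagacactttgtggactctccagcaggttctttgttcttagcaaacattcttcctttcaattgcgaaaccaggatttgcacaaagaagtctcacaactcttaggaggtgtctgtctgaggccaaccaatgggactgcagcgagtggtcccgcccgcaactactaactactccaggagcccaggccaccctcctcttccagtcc
Acot9, chrX:155262193-155262442, plus strand: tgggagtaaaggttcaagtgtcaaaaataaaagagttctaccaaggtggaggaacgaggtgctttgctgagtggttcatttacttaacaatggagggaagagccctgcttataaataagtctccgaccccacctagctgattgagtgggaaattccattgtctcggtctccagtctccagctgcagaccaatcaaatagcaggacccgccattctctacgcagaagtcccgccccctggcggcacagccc

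The window before Ucp3 held a match with 2 mismatches at positions -51 to -39 from the start site. The single motif AGGTCA stood there at -149 to -144 and again at -44 to -39, where it forms the end of the longer match. The window before Acot2 held a match with 3 mismatches at -58 to -46. The window before the first listed start site of Acot11 held a match with 3 mismatches at -225 to -213, on the strand opposite to the gene. None was found in the windows of Acot1, Acot7 or Acot9, which says only that these letters are not in these 250 bases. The Acot7 window, at 152185358 to 152185607, lies inside the gene, which is annotated from 152178100. The bases before that outer start were not searched. Of all 32851 RefSeq promoter windows of this length, 21.3% held such a match with at most 3 mismatches, 3.24% held one with at most 2, and 14.0% held the single motif. A match of letters is a description of the sequence and was not tested against binding.

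For 5 of the 6 thioesterases and for Ucp3, the aPD1_lef mean was the lowest and the aPD1_veh mean the highest of the 3 groups. Acot9 had the reverse order, and Angptl4 followed single libraries. With aPD1_lef set against aPD1_veh, 6 of the 8 genes were past the threshold (limma, adjusted p under 0.05 over 12005 genes) with lower values and Acot9 with higher values, while Angptl4 was not. Over all genes tested, 14.3% were past it with lower values and 18.2% with higher values. The genes were chosen on these libraries, so their counts are a description. All 8 passed the filter on low values, and their median log2 difference was -0.76, against 0.04 over all genes tested. Scaling every library to one total moved that median over all genes to 0.17. With aPD1_veh set against IgG_lef, and with aPD1_lef set against IgG_lef, none of the 8 was past the threshold, where 1.17% and 7.16% of all genes were (0.242% higher and 0.925% lower in the first, 5.15% higher and 2.01% lower in the second). These counts changed under some of 22 alternatives. In aPD1_veh against IgG_lef, Acot7 was past the threshold under 3 of them, without aPD1_lef replicate 4 among these, and Acot2 under 1, with only the groups compared. In aPD1_lef against IgG_lef, Acot2 was past it under 6, among them quantile normalization, scaling to one total and leaving out aPD1_lef replicate 2. Acot1 was past it there under 3, among them leaving out aPD1_lef replicate 2 or aPD1_veh replicate 3. Acot9 was past it under 2, leaving out aPD1_lef replicate 2 or the 3 libraries with atrial transcripts described below, and Acot11 under 1, without those 3 libraries.

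**Figure D1:**
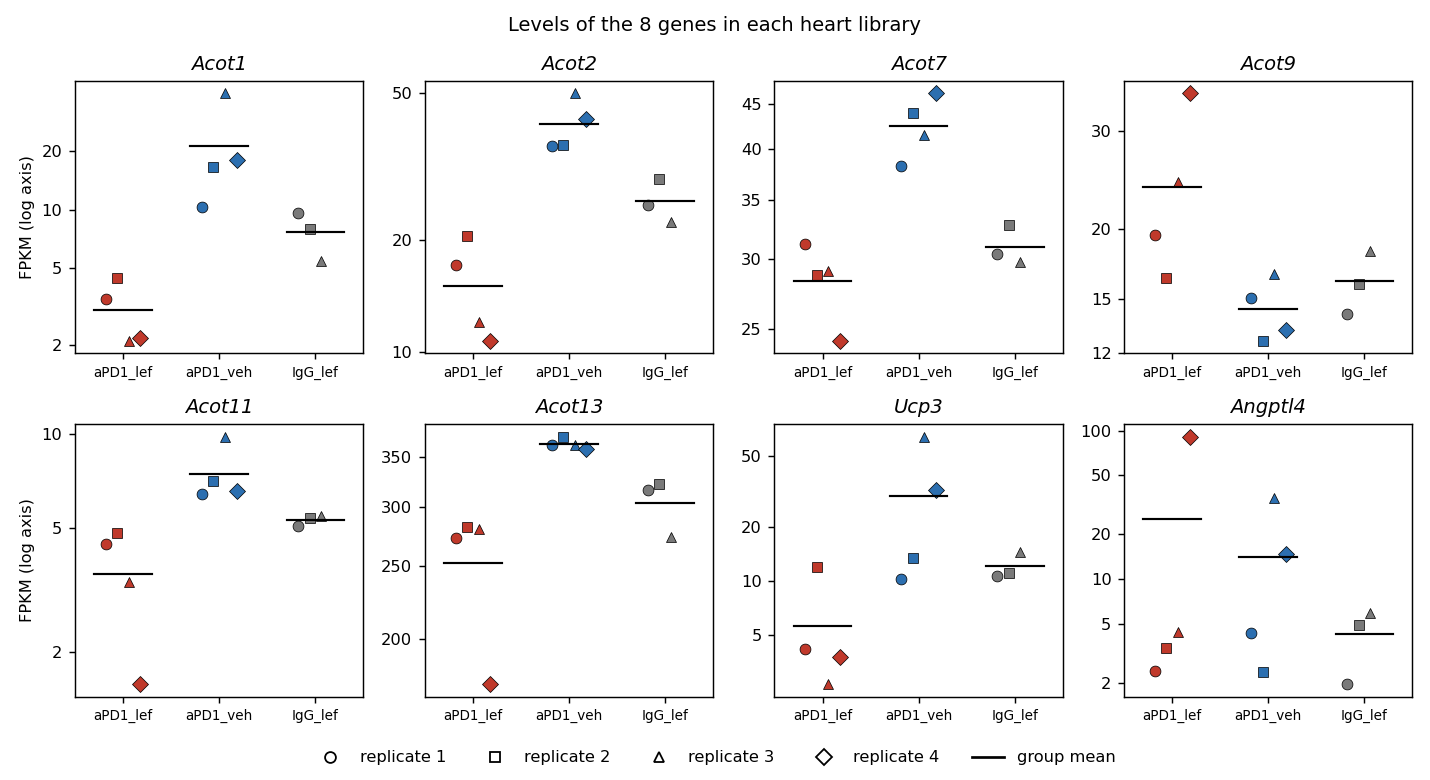
Level of each of the 8 genes in every library, in FPKM on log axes that differ between panels. Symbols give the replicate number, colours the group, and bars the group mean. For Acot1, Acot2, Acot7, Acot11 and Acot13 every aPD1_lef library lies below every aPD1_veh library, and for Angptl4 aPD1_lef replicate 4 lies at 90.98 FPKM, far above the rest of its group.

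Acot1 (chromosome 12, 84009502 to 84017670, GRCm38) encodes the cytosolic thioesterase of long-chain acyl-CoA. Its levels were 3.45, 4.42, 2.10 and 2.18 FPKM in aPD1_lef replicates 1 to 4, against 10.3, 16.6, 39.6 and 18.1 FPKM in aPD1_veh replicates 1 to 4. The IgG_lef libraries had 9.57, 7.96 and 5.41 FPKM. The 3 groups did not overlap: the lowest aPD1_veh library stood above the highest IgG_lef library, and the lowest IgG_lef library above the highest aPD1_lef library. The mean was 3.04 ± 1.11 FPKM in aPD1_lef (SD, n = 4) and 21.2 ± 12.8 FPKM in aPD1_veh (SD, n = 4), a ratio of 0.144, or 0.202 without aPD1_veh replicate 3. The IgG_lef mean was 7.65 ± 2.10 FPKM (SD, n = 3), so that aPD1_veh stood at 2.77 times and aPD1_lef at 0.397 times its level. The log2 differences were -2.34 ± 0.34 (SE) for aPD1_lef minus aPD1_veh, 1.23 ± 0.37 for aPD1_veh minus IgG_lef and -1.11 ± 0.37 for aPD1_lef minus IgG_lef. These differences are on the scale of log2(FPKM + 1), which understates changes of low genes.

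Acot2 (chromosome 12, 83987861 to 83993877) lies beside Acot1 on the same strand and encodes the corresponding enzyme of the mitochondrial matrix. It stood at 17.1, 20.5, 12.0 and 10.7 FPKM in aPD1_lef replicates 1 to 4, against 36.0, 36.1, 49.7 and 42.3 FPKM in aPD1_veh replicates 1 to 4. In IgG_lef replicates 1 to 3 it stood at 24.9, 29.2 and 22.4 FPKM. As for Acot1, none of the 3 groups overlapped. The group means were 15.1 ± 4.54 FPKM in aPD1_lef, 41.0 ± 6.51 FPKM in aPD1_veh (SD, n = 4 each) and 25.5 ± 3.46 FPKM in IgG_lef (SD, n = 3). The log2 difference was -1.42 ± 0.19 (SE) for aPD1_lef minus aPD1_veh, 0.66 ± 0.21 for aPD1_veh minus IgG_lef and -0.76 ± 0.21 for aPD1_lef minus IgG_lef. Of all genes tested, 36.1%, 19.0% and 26.7% had groups that did not overlap in these 3 comparisons (15.5% lower and 20.6% higher in the first).

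The 2 neighbours are near-identical copies over part of their length, which leaves their separate values uncertain. Of the 50-base windows of Acot1 transcripts, 23.5% also occurred in Acot2 transcripts, and 9.0% in those of Acot5. How the authors' counting treated such reads is not given in the sources used here. The sum of both levels, which also depends on how shared reads were counted and scaled by length, ranged from 12.9 to 24.9 FPKM in aPD1_lef, from 46.3 to 89.4 FPKM in aPD1_veh and from 27.8 to 37.2 FPKM in IgG_lef, again with no overlap. The ratio of the deposited levels of Acot1 to Acot2 was 0.199 ± 0.017 in aPD1_lef (SD, n = 4, range 0.175 to 0.216), 0.493 ± 0.216 in aPD1_veh (SD, n = 4, range 0.286 to 0.797) and 0.300 ± 0.075 in IgG_lef (SD, n = 3, range 0.242 to 0.384). The ratios of aPD1_lef and aPD1_veh did not overlap, and how far the split of shared reads enters them was not tested.

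Acot13 (chromosome 13, 24817955 to 24831489) encodes a small thioesterase found with mitochondria that binds the phosphatidylcholine transfer protein. It was the most abundant thioesterase of the family in all 11 libraries. Its levels were 273, 282, 280 and 174 FPKM in aPD1_lef replicates 1 to 4, against 364, 373, 364 and 359 FPKM in aPD1_veh replicates 1 to 4. The levels in IgG_lef replicates 1 to 3 were 317, 322 and 274 FPKM. The aPD1_veh libraries were the closest of any group and gene among the 8, with a coefficient of variation of 1.63%. All of them exceeded every library of the other groups, while aPD1_lef and IgG_lef overlapped. The aPD1_lef mean was 252 ± 52.5 FPKM and the aPD1_veh mean 365 ± 5.95 FPKM (SD, n = 4 each), a ratio of 0.691 (0.763 with aPD1_lef replicate 4 left out). The IgG_lef mean was 304 ± 26.7 FPKM (SD, n = 3). The log2 difference of aPD1_lef minus aPD1_veh was -0.56 ± 0.15 (SE), and under quantile normalization it was no longer past the threshold.

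Acot7 (chromosome 4, 152178100 to 152271855), a cytosolic thioesterase known for its abundance in neurons, varied little within groups, with coefficients of variation of 10.4% in aPD1_lef, 8.02% in aPD1_veh and 5.24% in IgG_lef. It stood at 31.2, 28.8, 29.1 and 24.2 FPKM in aPD1_lef replicates 1 to 4, against 38.3, 44.0, 41.6 and 46.3 FPKM in aPD1_veh replicates 1 to 4. In IgG_lef replicates 1 to 3 it stood at 30.4, 32.8 and 29.8 FPKM. The aPD1_veh libraries were all above those of both other groups, which overlapped each other. The log2 difference was -0.57 ± 0.09 (SE) for aPD1_lef minus aPD1_veh, 0.44 ± 0.10 for aPD1_veh minus IgG_lef and -0.13 ± 0.10 for aPD1_lef minus IgG_lef. The summed level of 7 neuron markers ran the other way, at 25.5 to 50.7 FPKM in aPD1_lef, 11.0 to 16.4 FPKM in aPD1_veh and 13.7 to 18.7 FPKM in IgG_lef. Tubb3 and Uchl1 carried that sum, with means of 8.68 and 24.9 FPKM in aPD1_lef against 1.38 and 7.63 FPKM in aPD1_veh. Stmn2 did not run the other way, with means of 4.90 FPKM in aPD1_lef, 5.16 FPKM in aPD1_veh and 5.28 FPKM in IgG_lef. The other 4 (Snap25, Syt1, Prph and Elavl4) were below 1 FPKM in every library.

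Acot11 (chromosome 4, 106744555 to 106805007) encodes a thioesterase with a lipid-binding START domain that is induced by cold in mouse brown fat. It had 4.43, 4.80, 3.35 and 1.57 FPKM in aPD1_lef replicates 1 to 4, against 6.42, 7.06, 9.81 and 6.57 FPKM in aPD1_veh replicates 1 to 4. IgG_lef replicates 1 to 3 had 5.07, 5.37 and 5.46 FPKM. The 3 groups did not overlap, in the same order as for Acot1 and Acot2. The ratio of aPD1_lef to aPD1_veh was 0.474, or 0.562 without aPD1_lef replicate 4, which held the lowest level. The log2 difference was -0.95 ± 0.23 (SE) for aPD1_lef minus aPD1_veh, 0.41 ± 0.25 for aPD1_veh minus IgG_lef and -0.54 ± 0.25 for aPD1_lef minus IgG_lef (-0.29 without aPD1_lef replicate 4). One end of the gene overlaps Fam151a, which averaged 0.00544 FPKM.

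Acot9 (chromosome X, 155262443 to 155297654), a mitochondrial thioesterase, had the opposite order. Its levels were 19.5, 16.4, 24.3 and 35.0 FPKM in aPD1_lef replicates 1 to 4, against 15.1, 12.6, 16.6 and 13.2 FPKM in aPD1_veh replicates 1 to 4. IgG_lef replicates 1 to 3 stood at 14.1, 15.9 and 18.3 FPKM. All 3 groups overlapped, with aPD1_lef replicate 2 below aPD1_veh replicate 3. The mean was 23.8 ± 8.17 FPKM in aPD1_lef and 14.4 ± 1.83 FPKM in aPD1_veh (SD, n = 4 each), a ratio of 1.66 (1.40 with aPD1_lef replicate 4 left out). The log2 difference of aPD1_lef minus aPD1_veh was 0.64 ± 0.20 (SE), and it was not past the threshold under 6 of 22 alternatives, among them leaving out aPD1_lef replicate 3 or aPD1_veh replicate 1, 2 or 4. Acot10, a copy on chromosome 15, shared 20.2% of the 50-base windows of Acot9 and averaged 0.0431 FPKM.

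Summed over the 13 genes of the Acot family in the table, thioesterase transcripts came to 334 ± 53.6 FPKM in aPD1_lef and 500.5 ± 22.1 FPKM in aPD1_veh (SD, n = 4 each), and to 398 ± 30.6 FPKM in IgG_lef (SD, n = 3). Without aPD1_lef replicate 4 the aPD1_lef sum was 360.5 ± 5.61 FPKM. Acot13 made up 75.0% of the sum in aPD1_lef, 73.0% in aPD1_veh and 76.4% in IgG_lef, so its share hardly moved. The share of Acot1 was 0.905% in aPD1_lef, 4.15% in aPD1_veh and 1.91% in IgG_lef, and that of Acot2 was 4.49%, 8.17% and 6.39% in the same order of groups. Acot9 took 7.63% in aPD1_lef, 2.87% in aPD1_veh and 4.09% in IgG_lef. In aPD1_lef replicate 4 alone it took 13.8%, and without that library the aPD1_lef mean was 5.57% for Acot9 and 4.58% for Acot2. Acot9 had the larger mean share of the 2 in aPD1_lef, and Acot2 in both other groups, but in aPD1_lef replicate 2 the level of Acot2 was above that of Acot9. Acot8, the peroxisomal thioesterase, averaged 6.36 ± 1.26 FPKM in aPD1_lef and 6.67 ± 0.25 FPKM in aPD1_veh (SD, n = 4 each), a log2 difference of -0.08 ± 0.12 (SE, limma adjusted p = 0.647) that was 0.04 without aPD1_lef replicate 4. The remaining genes, Acot3, Acot4, Acot5, Acot6, Acot10 and Acot12, averaged at most 1.02 FPKM over all libraries.

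**Figure D2:**
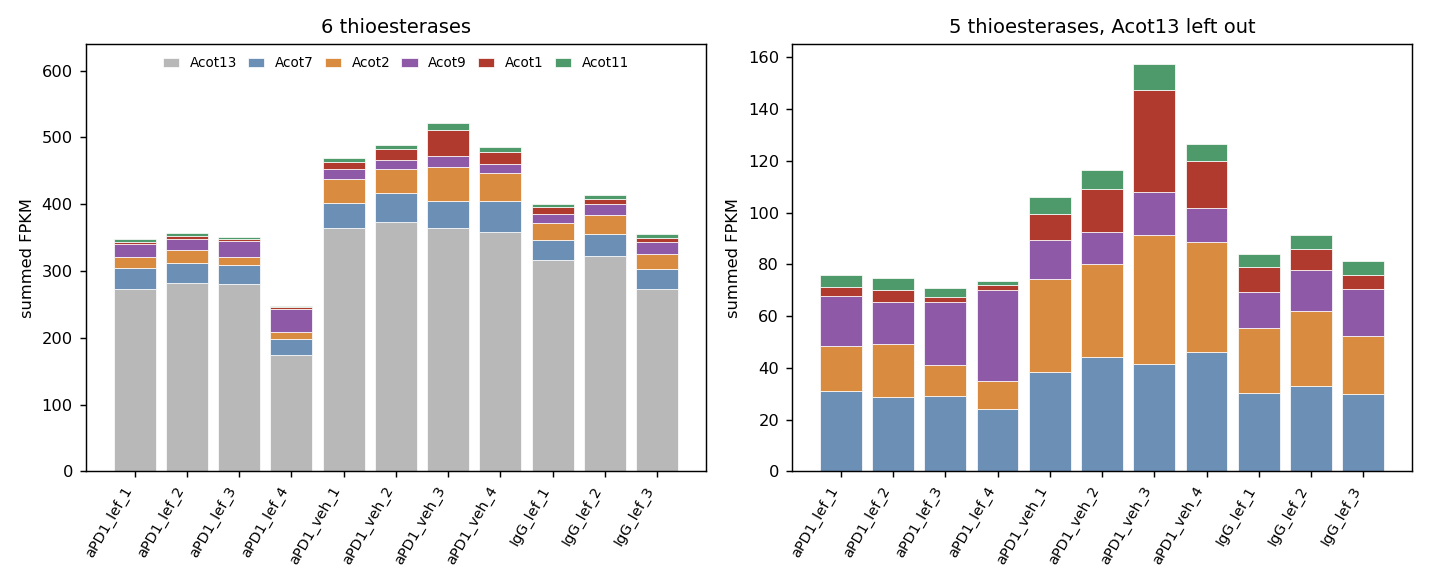
Stacked levels of the 6 thioesterases in each library, in summed FPKM, with Acot13 on the left and without it on the right. Without Acot13 the aPD1_lef bars are of near-equal height while their makeup differs, with Acot9 the widest band in aPD1_lef replicate 4 and Acot1 the band that sets aPD1_veh replicate 3 apart.

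Ucp3 (chromosome 7, 100472991 to 100486432) had a wide spread within both anti-PD-1 groups. It stood at 4.18, 12.0, 2.66 and 3.76 FPKM in aPD1_lef replicates 1 to 4, against 10.4, 13.4, 64.2 and 32.4 FPKM in aPD1_veh replicates 1 to 4. In IgG_lef replicates 1 to 3 it stood at 10.7, 11.2 and 14.6 FPKM. All groups overlapped, aPD1_lef and aPD1_veh through aPD1_lef replicate 2 alone, and aPD1_veh ranged over 6.20-fold. The mean was 5.66 ± 4.30 FPKM in aPD1_lef and 30.1 ± 24.7 FPKM in aPD1_veh (SD, n = 4 each), a ratio of 0.188. That ratio was 0.117 without aPD1_lef replicate 2 and 0.302 without aPD1_veh replicate 3. The IgG_lef mean was 12.1 ± 2.12 FPKM (SD, n = 3), and the ratio of aPD1_veh to it was 2.48, or 1.54 without aPD1_veh replicate 3. The ratio of aPD1_lef to IgG_lef was 0.466, or 0.291 without aPD1_lef replicate 2. The log2 difference of aPD1_lef minus aPD1_veh was -2.06 ± 0.53 (SE), and those of aPD1_veh and aPD1_lef minus IgG_lef were 0.91 ± 0.57 and -1.15 ± 0.57. Ucp3 is abundant in skeletal muscle, and 7 of 9 markers of fast skeletal muscle, among them Myh1, Myh2, Myh4 and Actn3, were below 1 FPKM in every library, with a summed level of at most 2.40 FPKM in aPD1_lef, 6.57 FPKM in aPD1_veh and 1.94 FPKM in IgG_lef.

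Angptl4 (chromosome 17, 33774900 to 33781575) was the most variable of the 8 genes. Its levels were 2.42, 3.47, 4.40 and 91.0 FPKM in aPD1_lef replicates 1 to 4, against 4.36, 2.38, 35.3 and 14.7 FPKM in aPD1_veh replicates 1 to 4. In IgG_lef replicates 1 to 3 they were 1.97, 4.89 and 5.93 FPKM. All groups overlapped, and 3 libraries, aPD1_lef replicate 4 and aPD1_veh replicates 3 and 4, stood above all others. The ratio of the aPD1_lef mean to the aPD1_veh mean was 1.79, but 0.242 without aPD1_lef replicate 4 and 3.54 without aPD1_veh replicate 3. The log2 difference was -0.11 ± 1.03 (SE), opposite in direction to the ratio of means, and -1.21 without aPD1_lef replicate 4. Against IgG_lef, the ratio was 3.33 for aPD1_veh (1.68 without its replicate 3) and 5.94 for aPD1_lef (0.804 without its replicate 4). No direction can be read for Angptl4 from these libraries. Angptl4 is abundant in fat, and 6 of 8 adipocyte markers, Adipoq, Plin1, Cidec, Retn, Lep and Ucp1, were below 1 FPKM in every library. The others on that list were measured, Cidea at 21.5 to 33.1 FPKM and Cfd at 0 to 7.90 FPKM. The part of fat cells in the level of Angptl4 was not tested.

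**Figure D3:**
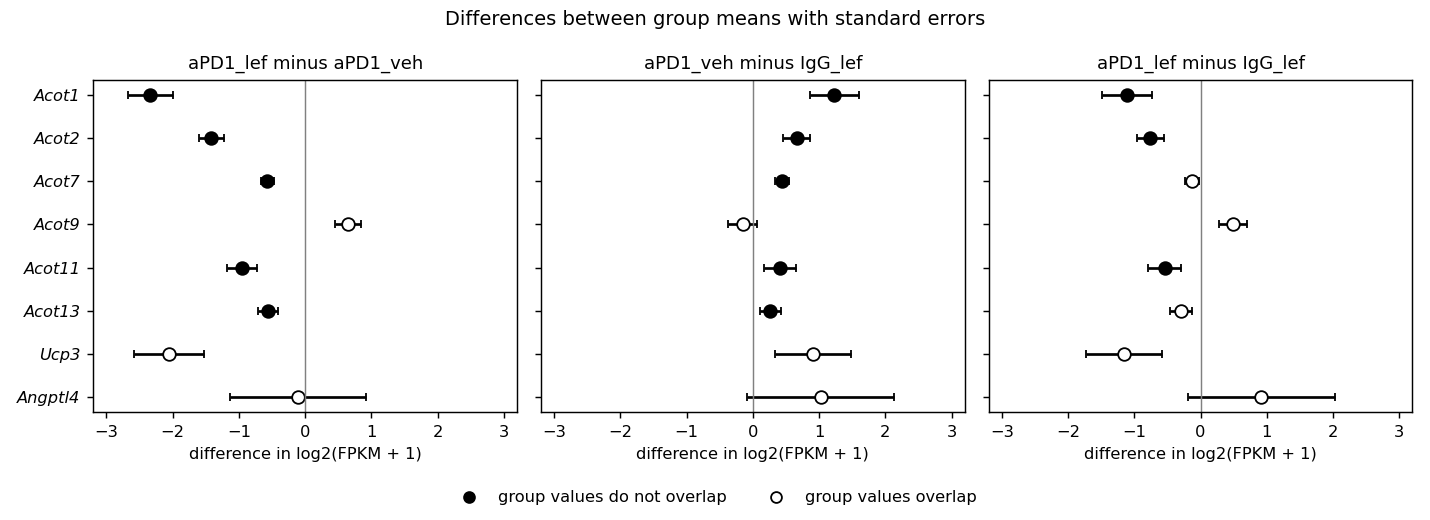
Difference between group means on the scale of log2(FPKM + 1) for each gene, 1 panel per comparison, with bars of 1 standard error. Filled points mark groups whose values do not overlap. The thioesterases other than Acot9 lie left of 0 in aPD1_lef minus aPD1_veh and right of 0 in aPD1_veh minus IgG_lef, and the bars of Angptl4 are the widest in every panel.

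The comparisons share their groups, so the values for aPD1_lef and aPD1_veh set against IgG_lef are not independent of those between the anti-PD-1 groups. In aPD1_veh against IgG_lef, 5 of the 8 genes (Acot1, Acot2, Acot7, Acot11 and Acot13) were higher in every aPD1_veh library than in any IgG_lef library, where 11.1% of all genes tested were, and none was lower in every library, where 7.91% were. Their log2 differences ran from 0.27 ± 0.16 (SE) for Acot13 to 1.23 ± 0.37 for Acot1. In aPD1_lef against IgG_lef, 3 of the 8 (Acot1, Acot2 and Acot11) were lower in every aPD1_lef library, where 11.4% of all genes were, and none was higher, where 15.3% were. Acot7 and Acot13 differed there by -0.13 ± 0.10 and -0.29 ± 0.16 on the log2 scale, with overlapping values (-0.06 and -0.12 without aPD1_lef replicate 4).

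In bulk heart RNA, fewer cells of a type and less RNA per cell cannot be told apart. The summed cardiomyocyte markers were 15150 to 40230 FPKM in aPD1_lef, 40630 to 54250 FPKM in aPD1_veh and 40920 to 47150 FPKM in IgG_lef, and 5 of the 12 were lower in aPD1_lef than in aPD1_veh, with a median log2 difference of -0.70. Summed fibroblast markers were 2385 to 3750 FPKM in aPD1_lef, 959 to 1278 FPKM in aPD1_veh and 1403 to 1958 FPKM in IgG_lef, and 8 of 10 were higher in aPD1_lef than in aPD1_veh. The anti-PD-1 groups did not overlap in either sum. For the cardiomyocyte markers the margin was narrow, with 40230 FPKM in aPD1_lef replicate 2 and 40630 FPKM in aPD1_veh replicate 3. Of the other marker lists, none of the 8 endothelial, 8 macrophage or 2 measured adipocyte genes passed the test in this comparison, 1 of 3 atrial genes and 5 of 5 erythroid genes were lower, and 2 of 3 neuron genes were higher. Atrial markers summed to 91.3 and 99.3 FPKM in aPD1_lef replicates 1 and 2 and to 568 FPKM in IgG_lef replicate 2, against at most 21.8 FPKM elsewhere. Without those 3 libraries, the log2 difference of aPD1_lef minus aPD1_veh was -2.66 for Acot1, -1.76 for Acot2 and 0.98 for Acot9. That fit left only replicates 3 and 4 in aPD1_lef, and replicate 4 is the library that stood apart from its group. With replicate 4 alone left out, the differences were -2.23, -1.28 and 0.45 in the same order of genes. The part of cell makeup in the levels of the 8 genes was not tested.

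Most of the other targets of PPAR-alpha measured were lower in aPD1_lef than in aPD1_veh. Of 35 measured genes of a list of 41 known targets, 28 fell, none rose and 7 did not pass (limma, adjusted p under 0.05), with a median log2 difference of -0.94. Without any single library the count was between 24 and 28. Of all genes tested in this comparison, 14.3% were past the threshold with lower values and 18.2% with higher values. These shares also stand beside the counts of the lists below. In aPD1_veh against IgG_lef, 1 of the 35, Plin5, was past the threshold, and in aPD1_lef against IgG_lef 8 were, all lower. Leaving out a single library took this 8 to between 0 (without aPD1_lef replicate 3, aPD1_veh replicate 2 or any 1 IgG_lef library) and 21 (without aPD1_lef replicate 2). Like the 8 genes, this list was drawn up with earlier results of these libraries known, so its count is not independent evidence of a direction.

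Plin5, a lipid droplet coat protein of oxidative tissue that places droplets next to mitochondria, stood at 29.7, 37.9, 27.4 and 19.1 FPKM in aPD1_lef replicates 1 to 4, against 66.7, 79.9, 118 and 71.4 FPKM in aPD1_veh replicates 1 to 4. It fell by 1.53 ± 0.21 (SE) on the log2 scale (limma adjusted p = 0.000959). In aPD1_veh it was 1.12 ± 0.23 above IgG_lef (limma adjusted p = 0.042), where leaving out any 1 library other than aPD1_lef replicate 2 or 4 gave an adjusted p of 0.0566 to 0.171. Pex11a, which takes part in peroxisome division, averaged 5.27 ± 1.06 FPKM in aPD1_lef and 10.3 ± 1.03 FPKM in aPD1_veh (SD, n = 4 each) and fell by 0.86 ± 0.12 (limma adjusted p = 0.00113). Cpt1b, the heart form of the enzyme that admits long-chain fatty acids to mitochondria, averaged 140 ± 34.5 FPKM in aPD1_lef and 222 ± 5.56 FPKM in aPD1_veh, and fell by 0.69 ± 0.16 (limma adjusted p = 0.00964).

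Pdk4, a kinase that turns off pyruvate dehydrogenase and is among the best known PPAR-alpha targets, was one of the 7 that did not pass. It stood at 45.0, 75.0, 38.1 and 232 FPKM in aPD1_lef replicates 1 to 4, against 67.4, 58.6, 840 and 221 FPKM in aPD1_veh replicates 1 to 4, and at 53.3, 62.6 and 61.9 FPKM in IgG_lef replicates 1 to 3. The high libraries are those that were high for Angptl4. The log2 difference was -1.15 ± 0.79 (SE, limma adjusted p = 0.288), and the ratio of means of 0.329 became 0.178 without aPD1_lef replicate 4 and 0.843 without aPD1_veh replicate 3. In aPD1_lef against IgG_lef, the trifunctional protein subunit Hadhb averaged 407 ± 82.6 FPKM in aPD1_lef (SD, n = 4) and 671 ± 46.9 FPKM in IgG_lef (SD, n = 3), lower by a log2 difference of -0.74 ± 0.16 (limma adjusted p = 0.0306). That call was lost under 8 of 22 alternatives (adjusted p = 0.0524 to 0.155), among them leaving out aPD1_lef replicate 3, aPD1_veh replicate 2 or any 1 IgG_lef library. Acaa2, the last enzyme of the mitochondrial oxidation cycle, averaged 203 ± 82.2 FPKM in aPD1_lef and 431 ± 61.1 FPKM in IgG_lef (limma adjusted p = 0.0393). It was past the threshold under 10 of 22 alternatives, and not when any 1 library other than aPD1_lef replicate 2 or 4 was left out (adjusted p up to 0.184).

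**Figure D4:**
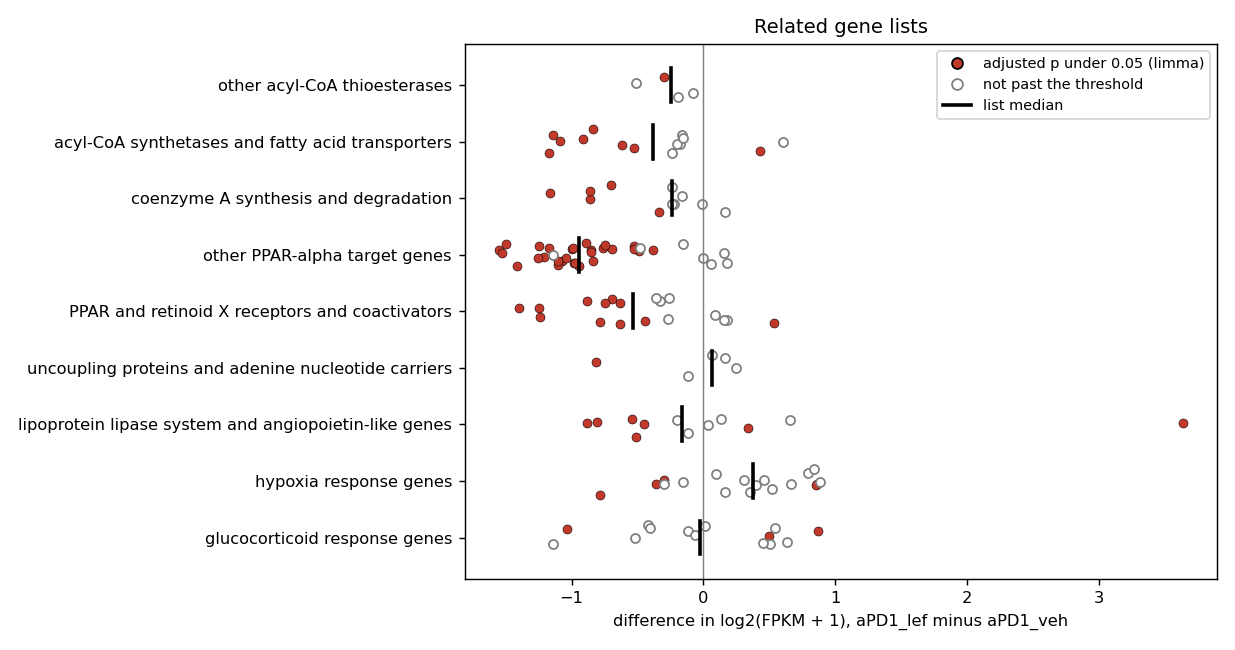
Difference of aPD1_lef minus aPD1_veh on the scale of log2(FPKM + 1) for the measured genes of 9 related lists. Filled points passed limma at an adjusted p under 0.05, open points did not, and the vertical bar is the median of each list. The list of PPAR-alpha targets has its median at -0.94, and the isolated point at 3.64 is Angptl7.

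Acyl-CoA, the substrate of the thioesterases, is supplied by fatty acid transporters and acyl-CoA synthetases. Of 14 measured genes of these kinds, 7 fell in aPD1_lef against aPD1_veh, 1 (Acsl5) rose and 6 did not pass, with a median log2 difference of -0.38. Among the 7, Acsl1, Cd36 and Fabp3 are also counted in the list of PPAR-alpha targets above. Acsl1, the main long-chain acyl-CoA synthetase of the heart, stood at 159, 184, 107 and 56.9 FPKM in aPD1_lef replicates 1 to 4, against 238, 284, 262 and 267 FPKM in aPD1_veh replicates 1 to 4. The groups did not overlap, and Acsl1 fell by 1.17 ± 0.29 (SE, limma adjusted p = 0.0136). Cd36, which carries fatty acids into the cell, averaged 445 ± 55.8 FPKM in aPD1_lef and 800 ± 122 FPKM in aPD1_veh (SD, n = 4 each) and fell by 0.84 ± 0.13 (limma adjusted p = 0.00165). Acss1, the mitochondrial acetyl-CoA synthetase, fell by 1.09 ± 0.15 against aPD1_veh (limma adjusted p = 0.00108) and was the 1 gene of this list past the threshold in aPD1_lef against IgG_lef, lower by a log2 difference of -0.81 ± 0.17 (limma adjusted p = 0.0258). This last call was lost under 6 of 22 alternatives (adjusted p = 0.0514 to 0.144), among them leaving out aPD1_lef replicate 3 or IgG_lef replicate 1 or 2. Slc27a1, a fatty acid transport protein, fell by 0.92 ± 0.15 (limma adjusted p = 0.00217).

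Coenzyme A, the other product of the thioesterases, is made from pantothenate and broken down by Nudix hydrolases. Of 11 measured genes of its synthesis and breakdown, 5 fell in aPD1_lef against aPD1_veh, none rose and 6 did not pass (median log2 difference -0.24). All 3 listed hydrolases were among the 5. Nudt7, which acts in peroxisomes, averaged 24.9 ± 5.47 FPKM in aPD1_lef and 45.3 ± 2.68 FPKM in aPD1_veh (SD, n = 4 each), and fell by 0.86 ± 0.15 (limma adjusted p = 0.00331). Nudt8, which acts in mitochondria, averaged 66.1 ± 20.3 FPKM in aPD1_lef and 116 ± 3.76 FPKM in aPD1_veh and fell by 0.86 ± 0.21 (limma adjusted p = 0.0118). Pank4, a member of the pantothenate kinase family, fell by 0.70 ± 0.16 (limma adjusted p = 0.0105). Of the 4 measured thioesterases outside the 8 genes, Them4 alone passed, lower by 0.30 ± 0.10 (limma adjusted p = 0.0428), and it was not past the threshold without aPD1_lef replicate 1, 3 or 4, without aPD1_veh replicate 1, 2 or 4, or without any 1 IgG_lef library.

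The next list held 18 PPAR and retinoid X receptors, cofactors, Esrr receptors and lipases. Of these, 10 fell in aPD1_lef against aPD1_veh, 1 rose and 7 did not pass (median log2 difference -0.54). Of the PPAR and retinoid X receptors themselves, Ppara, Rxra and Rxrg fell, while Ppard, Pparg and Rxrb did not pass. The 10 also include Esrra, Esrrb and Esrrg, which are neither PPAR nor retinoid X receptors. Ppara itself stood at 7.90, 9.12, 6.93 and 4.54 FPKM in aPD1_lef replicates 1 to 4, against 11.4, 15.3, 12.0 and 9.34 FPKM in aPD1_veh replicates 1 to 4. The groups did not overlap, by a narrow margin, and Ppara fell by 0.70 ± 0.18 (SE, limma adjusted p = 0.0166). The coactivator Ppargc1a fell by 1.25 ± 0.13 against aPD1_veh (limma adjusted p = 0.000226) and was lower by a log2 difference of -0.65 ± 0.14 in aPD1_lef against IgG_lef (limma adjusted p = 0.0304). The second call was lost under 8 of 22 alternatives (adjusted p = 0.0524 to 0.129), among them leaving out aPD1_lef replicate 3, aPD1_veh replicate 2 or any 1 IgG_lef library. The lipases Pnpla2 and Lipe, counted in this list because they release fatty acids from stored fat, fell by 0.79 ± 0.13 and 1.24 ± 0.21 (limma adjusted p = 0.00201 and 0.00279).

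Beside Ucp3, 5 uncoupling proteins and adenine nucleotide carriers were measured, of which Slc25a4, the main heart exchanger of ADP and ATP, fell in aPD1_lef against aPD1_veh and 4 did not pass (median log2 difference 0.06). Slc25a4 averaged 2572 ± 793 FPKM in aPD1_lef and 4326 ± 372 FPKM in aPD1_veh (SD, n = 4 each), a log2 difference of -0.81 ± 0.24 (limma adjusted p = 0.0241), and it was not past the threshold without aPD1_veh replicate 2 or 4 or under quantile normalization (adjusted p = 0.156). Ucp2, the family member of broadest expression, stood at 46.2, 55.4, 52.7 and 165 FPKM in aPD1_lef replicates 1 to 4, against 51.6, 62.0, 84.6 and 40.8 FPKM in aPD1_veh replicates 1 to 4. It differed by 0.25 ± 0.37 on the log2 scale (limma adjusted p = 0.628), and by -0.17 without aPD1_lef replicate 4 (limma adjusted p = 0.607). The transcripts of Ucp3 and Ucp2 shared none of their 50-base windows.

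Angptl4 acts on lipoprotein lipase, so the genes of that enzyme's system were examined with it. Of 12 measured, 2 rose, 5 fell and 5 did not pass in aPD1_lef against aPD1_veh (median log2 difference -0.16). Lpl, the lipase itself, stood at 955, 1036, 764 and 477 FPKM in aPD1_lef replicates 1 to 4, against 1222, 1505, 1493 and 1511 FPKM in aPD1_veh replicates 1 to 4, and fell by 0.88 ± 0.21 (SE, limma adjusted p = 0.0119). The groups did not overlap, and under quantile normalization its adjusted p was 0.0679. Lmf1, which matures the lipase, fell by 0.51 ± 0.12 (limma adjusted p = 0.0104). Angptl7, a secreted relative of Angptl4, had the largest difference of all related lists: it averaged 35.1 ± 18.5 FPKM in aPD1_lef and 1.85 ± 1.50 FPKM in aPD1_veh (SD, n = 4 each) and rose by 3.64 ± 0.56 (limma adjusted p = 0.00165). Angptl7 was lowest in aPD1_lef replicate 4, at 12.3 FPKM, the library in which Angptl4 was highest.

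Angptl4 is known to respond to low oxygen and to glucocorticoids as well as to PPAR-alpha, and target genes of both were counted for this reason. Of 18 measured hypoxia response genes, 2 rose, 3 fell and 13 did not pass in aPD1_lef against aPD1_veh (median log2 difference 0.38). Within aPD1_lef, every one of the 18 except the 3 that fell (Egln1, Pdk1 and Higd1a) was highest in replicate 4. Slc2a1 stood there at 115 FPKM (7.82 to 12.9 FPKM in the other aPD1_lef libraries), Adm at 81.0 FPKM (4.55 to 5.99) and Ndrg1 at 119 FPKM (25.3 to 28.4). The list median without that library was not computed. Egln1, the oxygen-sensing hydroxylase, fell by 0.79 ± 0.09 (SE, limma adjusted p = 0.000394) and Pdk1 fell by 0.30 ± 0.08 (limma adjusted p = 0.0149, but 0.143 with every library scaled to one total). Pfkfb4, a regulator of glycolysis, rose by 0.86 ± 0.21 (limma adjusted p = 0.0136). Of 14 measured glucocorticoid response genes, 2 rose, 1 fell and 11 did not pass (median log2 difference -0.03). Replicate 4 was again the highest aPD1_lef library for every one of these 14 except Klf15, so this pattern was not particular to the hypoxia list. The median of the glucocorticoid list without replicate 4 was not computed either. Pdk4 is counted both here and among the PPAR-alpha targets. Of all genes tested in this comparison, 18.2% rose and 14.3% fell, the shares to set beside the counts of both lists. Klf15, which controls amino acid and lipid use in the heart, fell by 1.04 ± 0.16 (limma adjusted p = 0.00187), and Tsc22d3 rose by 0.50 ± 0.12 (limma adjusted p = 0.0129). Per1 rose by 0.87 ± 0.29 (limma adjusted p = 0.0415), but was not past the threshold without any 1 aPD1_veh or IgG_lef library, and without aPD1_lef replicate 4 the difference was 0.51 (limma adjusted p = 0.00795). In aPD1_veh against IgG_lef, Egln1 was the 1 gene of the related lists past the threshold outside the PPAR-alpha targets, higher by 0.51 ± 0.10 (limma adjusted p = 0.0373), where leaving out any 1 library other than aPD1_lef replicate 2 or 4 gave an adjusted p of 0.060 to 0.140.

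The libraries differed within their groups along more than 1 pattern. In aPD1_veh replicate 3, the level over the mean of the other 3 aPD1_veh libraries was 7.27 for Pdk4, 4.94 for Angptl4, 3.43 for Ucp3 and 2.64 for Acot1. It was 1.30 for Acot2, 0.997 for Acot13 and 0.992 for Cpt1b. That library thus held high levels of some PPAR-alpha targets and unremarkable levels of others, and it was the highest of its group for 6 of the 8 genes. In aPD1_lef replicate 4, the level over the mean of the other 3 aPD1_lef libraries was 26.5 for Angptl4, 4.40 for Pdk4 and 1.75 for Acot9, but 0.655 for Acot1, 0.598 for Ucp3, 0.624 for Acot13 and 0.374 for Acot11. High Angptl4 and Pdk4 therefore went with high Acot1 and Ucp3 in aPD1_veh replicate 3 but not in aPD1_lef replicate 4, where Acot1 stood close to the lowest library of its group and Ucp3 between replicates 1 and 3. Plin2, a droplet coat gene named here after its values were seen, stood at 1.95 and 2.80 times the rest of the group in these libraries. The third pattern was that of aPD1_lef replicate 2, the highest of its group for 5 of the 8 genes and for 27 of 35 other PPAR-alpha targets, while aPD1_lef replicate 4 was the lowest for 26 of them.

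Fkbp5, a glucocorticoid response gene, was highest in aPD1_lef replicate 4 and aPD1_veh replicate 3, which were also highest for Angptl4, but was lowest of its group in aPD1_veh replicate 4. It stood at 9.73, 7.43, 13.4 and 71.7 FPKM in aPD1_lef replicates 1 to 4, against 13.7, 13.1, 43.7 and 8.90 FPKM in aPD1_veh replicates 1 to 4. Between the groups it differed by 0.01 ± 0.65 on the log2 scale (limma adjusted p = 0.992), and by -0.67 without aPD1_lef replicate 4 (limma adjusted p = 0.306). Vegfa, a hypoxia response gene, was high in aPD1_lef replicate 4 but not in aPD1_veh replicate 3: its levels were 48.2, 43.1, 38.4 and 123 FPKM in aPD1_lef replicates 1 to 4, against 49.9, 45.5, 40.2 and 39.9 FPKM in aPD1_veh replicates 1 to 4 (log2 difference 0.35 ± 0.30, limma adjusted p = 0.378). Without aPD1_lef replicate 4 the difference was -0.02 (limma adjusted p = 0.898). What set these libraries apart was not tested, and the labels used here name no batch.

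**Figure D5:**
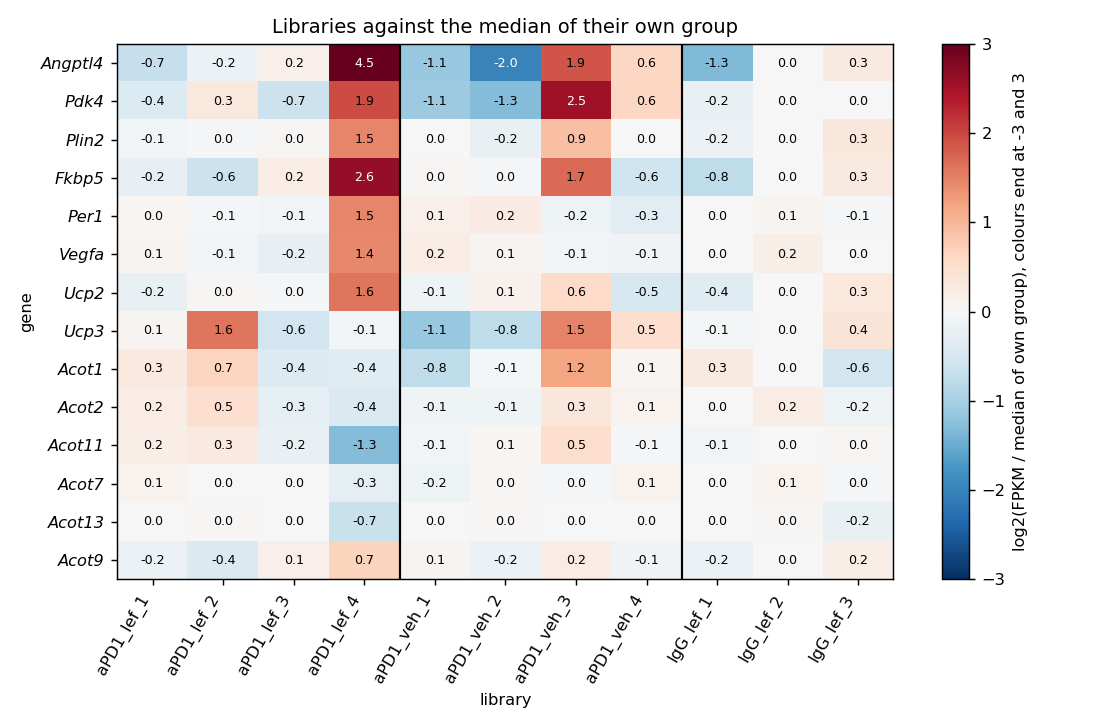
Level of 14 genes in each library as log2 of FPKM over the median of the library's own group, so that differences between groups are removed. Red cells lie above the group's median and blue cells below it. Angptl4 and Pdk4 are red in both aPD1_lef replicate 4 and aPD1_veh replicate 3, whereas Acot1 is red in aPD1_veh replicate 3 and pale blue in aPD1_lef replicate 4.

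Some pairs of the 8 genes varied together within groups, and others did not. The pairs given first are among the strongest. After subtracting group means, over 11 libraries, Acot1 correlated at r = 0.809 with Ucp3 and at 0.756 with Acot2, and Acot2 at 0.822 with Acot11. Angptl4 correlated at 0.818 with Acot9 and at -0.811 with Acot13, and Acot9 at -0.825 with Acot13. Other pairs were far weaker, among them Acot13 and Ucp3 (0.088) and Acot1 and Angptl4 (0.13). These values are descriptions of 11 libraries that share their preparation and, through aPD1_lef replicate 4, a single library far from the rest. Over the 10 libraries without it, the 3 correlations among Angptl4, Acot9 and Acot13 were 0.516 (Angptl4 and Acot9), -0.274 (Angptl4 and Acot13) and -0.426 (Acot9 and Acot13). That of Acot1 with Ucp3 was 0.806, that of Acot1 with Acot2 0.783 and that of Acot2 with Acot11 0.783. The correlation of Acot11 with Acot13 went from 0.797 to -0.07. Genes with the most similar pattern over all 11 libraries were sought among the 12005 genes kept, leaving out predicted genes with Gm or Rik names. The 3 with the highest correlation of log2(FPKM + 1) were taken. For Acot1 they were Slc40a1 (r = 0.979), Klf15 (0.975) and Nadk2 (0.974), and for Acot2 Map1lc3b (0.991), Gstm1 (0.988) and Aarsd1 (0.987). For Acot11 they were Foxo4 (0.988), Rxra (0.985) and Tmem205 (0.983), and for Acot13 Mcrip2 (0.987), Alkbh7 (0.986) and Nudt8 (0.986). Those of Acot7 were Mrpl23 (0.982), Akt2 (0.973) and Khk (0.966), and those of Acot9 Serpinb6a (0.990), Galnt16 (0.989) and Adam9 (0.988). Ucp3 was most like Sgo2a (0.979) and Slc40a1 (0.952), and Angptl4 most like Utp4 (0.977), Chp1 (0.957) and Plin2 (0.950). After subtracting group means the 24 correlations were between 0.892 and 0.985, and without aPD1_lef replicate 4 between 0.689 and 0.977. The genes were picked for high correlation in these same libraries, so none of these values is a test of a link. Sgo2a also lay near the filter limit, at 0.67 to 2.69 FPKM. Slc40a1, which encodes the iron exporter of the cell membrane, was the gene shared by the lists of Acot1 and Ucp3, and it stood at 2.40, 4.51, 1.88 and 1.64 FPKM in aPD1_lef replicates 1 to 4, against 6.71, 9.96, 19.3 and 11.7 FPKM in aPD1_veh replicates 1 to 4.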

How the data were processed

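The deposited table gives RNA sequencing values of mouse heart for 34714 genes in 12 columns. The names of 11 columns matched a sample's label. The name of 1 column matched none and it was not used, so the fourth IgG_lef sample is not analysed here. Per the labels' protocols, total RNA was extracted with TRIzol and made into libraries with an NEBNext Ultra kit. The submitters' processing notes name HISAT2, DESeq2 and mm10, with neither role nor version. No source used here states the unit. FPKM made by the authors was assumed for the deposited numbers, because no column holds whole numbers and totals differ between libraries, and a TPM table with rows left out cannot be told apart from it. Between 15.2% and 18.6% of low values came out whole to within 0.05 (10% by chance), so reads were not recovered and depth is unknown.

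The filter kept the 12005 genes that reached 1 in 4 or more libraries. A single limma 3.58.1 model (R 4.3.3, statmod 1.5.0) of log2(value + 1) with 3 groups and 11 libraries was used, with trend and robust eBayes, Benjamini-Hochberg adjustment over all genes and a threshold of 0.05. Ratios are of group means. No p-values are given for the 8 genes, since the members, the 9 related gene lists and the 9 marker lists were chosen with earlier results of these data known. Named beside the 8 genes were, for each related list and comparison, up to 3 genes of smallest p past the threshold, and 12 genes fixed by name. For each of the 8, the 3 genes most correlated with it were also named, leaving out genes with Gm or Rik names. Plin2, Acsl5, Slc2a1, Adm, Ndrg1, Tubb3, Uchl1, Stmn2 and the list members named where 5 or fewer passed were chosen after their values were seen. All PPAR, retinoid X and Esrr receptors of their list were named to show its makeup. A few genes that this rule names are counted in their lists but not reported here. Alternatives covered scaling, pseudocount, filter, model and left-out libraries. Coordinates and promoter sequences come from RefSeq (GRCm38.p6), where all 34714 symbols matched, and transcript windows from GENCODE vM21. Python 3.11.15, pandas 2.3.3, NumPy 2.4.6 and matplotlib 3.10.9 served for tables and plots.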

Additional observations from a re-analysis of the deposited data

Results flagged for a closer look

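In a group of 4 libraries, the highest or lowest value was singled out where its gap to the nearest other library exceeded 0.829 of the group's range. This was done for the 8 genes and the named list genes in aPD1_lef and aPD1_veh, 86 groups of values from 43 genes, and gave 11 cases. The limit flags about 1 in 20 groups when values are independent and normally distributed. These FPKM values were not logged and many of the genes vary together, so the 11 cases are no test against chance. Groups of 3 (IgG_lef) were not examined. Of the 11 cases, 7 fell on aPD1_lef replicate 4, 2 on aPD1_veh replicate 3 and 1 each on aPD1_lef replicate 2 and aPD1_veh replicate 1.

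Among the 8 genes there were 3. Acot13 stood at 173.7 FPKM in aPD1_lef replicate 4, below 272.6 to 282.5 FPKM in the rest of the group. Angptl4 stood at 90.98 FPKM in aPD1_lef replicate 4, above 2.421 to 4.398 FPKM in the rest. Ucp3 stood at 12.03 FPKM in aPD1_lef replicate 2, above 2.658 to 4.176 FPKM in the rest.

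Among the other named genes, aPD1_lef replicate 4 was low for Them4 at 4.809 FPKM (others 6.242 to 6.525). The same library was high for Per1 at 47.71 FPKM (others 16.34 to 17.91), Ucp2 at 164.9 FPKM (others 46.23 to 55.4), Vegfa at 123.0 FPKM (others 38.38 to 48.18) and Fkbp5 at 71.66 FPKM (others 7.427 to 13.37). The library aPD1_veh replicate 3 was high for Fkbp5 at 43.7 FPKM (others 8.9 to 13.74) and for Lipe at 46.82 FPKM (others 23.42 to 26.73). Lpl was low in aPD1_veh replicate 1 at 1222 FPKM (others 1493 to 1511).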

How the results depend on the processing

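For aPD1_lef against aPD1_veh, 3892 genes passed the threshold (2181 higher, 1711 lower), 3467 higher and 1124 lower with every library scaled to one total, and 1784 higher and 2205 lower under quantile normalization. Leaving out each library gave 2413 (without aPD1_veh replicate 4) to 4316, with 2505 without aPD1_veh replicate 2. The 28 PPAR-alpha targets and the 38 genes of the other related lists stayed within 1.5 times (24 to 28 and 27 to 43 without 1 library). The 38 leave out genes that are also counted as PPAR-alpha targets. For aPD1_veh against IgG_lef, 140 genes passed (29 higher, 111 lower, and 15 and 131 with one total). The count was 92 without a filter on low values, 405 with only the groups compared, 0 with the replicate block (1494 at an unadjusted p under 0.05), 341 with neither aPD1_lef replicate 4 nor aPD1_veh replicate 3, and 3 to 478 without 1 library (3 without IgG_lef replicate 3, 478 without aPD1_lef replicate 4). Of the PPAR-alpha targets 1 passed, against 0 under quantile normalization, with one total, without a filter, with the replicate block or without the libraries with Myl7 above 10, 4 with only the groups compared, 3 with neither of those 2 libraries, and 0 to 3 without 1 library. Of the other lists 1 gene passed, against 0 with one total, without a filter, with the replicate block or without the Myl7 libraries, 8 with only the groups compared, 2 under median-ratio scaling, 10 with neither of the 2 libraries, and 0 to 9 without 1 library.

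For aPD1_lef against IgG_lef, 859 genes passed (618 higher, 241 lower, 652 and 538 under quantile normalization, 584 and 480 under median-ratio scaling). The count was 277 without a filter, 0 with only the groups compared (2670 at an unadjusted p under 0.05), 0 with the replicate block (2830), 2180 without the Myl7 libraries, 1394 with neither of the 2 libraries, and 2 to 2328 without 1 library (2 without IgG_lef replicate 1, 2328 without aPD1_lef replicate 2). Of the PPAR-alpha targets 8 passed, against 0 without a filter, with only the groups compared or with the replicate block, 18 without the Myl7 libraries, 13 under median-ratio scaling, 16 with neither of the 2 libraries, and 0 to 21 without 1 library. Of the other lists 3 genes passed, against 7 under quantile normalization, 0 without a filter, with only the groups compared or with the replicate block, 17 without the Myl7 libraries, 10 under median-ratio scaling, 13 with neither of the 2 libraries, and 0 to 16 without 1 library. The cause of these changes was not tested.

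The last 3 alternatives (the Myl7 libraries, median-ratio scaling and the 2 libraries) were chosen after seeing the data. Leaving out the Myl7 libraries left only replicates 3 and 4 in aPD1_lef. Same-numbered samples deviated together at r = -0.29 to 0.194 in 10 pairs, 4 of them over 0.1, so the numbers were not taken to pair the samples. With the replicate block, 3602 genes passed for aPD1_lef against aPD1_veh. For the 8 genes, 5 of 176 log2 differences of aPD1_lef minus aPD1_veh moved by more than the spread within groups, 0 of 176 of aPD1_veh minus IgG_lef and 2 of 176 of aPD1_lef minus IgG_lef. None of those past the threshold changed sign. Depth is unknown, which limits what can be said of genes near 0.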
